A study of Mus musculus with 9 samples.

Results

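Gas5 and 6 of the small nucleolar RNA host genes, Snhg1, Snhg3, Snhg5, Snhg6, Snhg7 and Snhg8, were followed across 3 CD8 T cell clones. They were taken from the deposited table by symbol, and all 7 named genes were found among its 24060 genes. All 7 had a maximum level above 1 TPM, the unit of the table, which scales each library to the same total after dividing by transcript length, and so were among the 11330 genes tested. The clones are named R7-I, R7-II and also R7-III, and come from mouse lines on a Rag2-proficient BALB/c background that were made by somatic cell nuclear transfer from T cells specific for ROP7, a protein of the parasite Toxoplasma gondii. Their T cell receptors recognise the same ROP7 peptide with different affinity, R7-II being the weakest binder. Splenocytes of each line spent a night in culture with interleukin-2 at 10 ng/ml and the ROP7 peptide at 10 µM, after which CD3+ CD8+ cells binding the H-2Ld-Rop7 tetramer were sorted and their polyadenylated RNA was sequenced. Each clone had 3 libraries, labelled as biological replicates, all treated alike, and libraries without peptide were not analysed here. Every clone stands for a mouse line of its own, so an effect of the receptor and any other heritable difference between the lines cannot be told apart.

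Small nucleolar RNAs (snoRNAs) guide the chemical modification of ribosomal RNA. Box C/D snoRNAs direct methylation of the ribose and box H/ACA snoRNAs direct the change of uridine to pseudouridine, each in a complex with a small set of core proteins. In mammals most snoRNAs are not transcribed on their own. They lie in introns of host genes and are trimmed out of the excised intron, while the spliced exons form the host RNA. For Gas5 and the Snhg genes the spliced RNA codes for no protein of known importance, and several of them begin with a run of pyrimidines, a terminal oligopyrimidine (TOP) start like that of ribosomal protein messages. RNAs of this kind are bound by ribosomes when growth is strong, and their short reading frames make them targets of nonsense-mediated decay, so that the spliced RNA is short-lived. Gas5 was named for its accumulation in growth-arrested cells, and its RNA can bind the glucocorticoid receptor. The levels reported here are those of the spliced, polyadenylated host RNAs, not of the snoRNAs.

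The members carry different snoRNAs. The RefSeq annotation of GRCm38 placed 8 snoRNA genes inside Gas5, 8 inside Snhg1, 2 each inside Snhg3, Snhg5 and Snhg7, and 1 each inside Snhg6 and Snhg8. Examples from Gas5, Snhg5, Snhg6 and Snhg8 are printed 5′ to 3′ from GENCODE transcripts of GRCm38. Capitals mark TGATGA within the first 20 bases and CTGA within the last 20, the letters of boxes C and D, or ACA within the last 8 bases of an H/ACA snoRNA. Snord22 of Snhg1, which is not printed, does not hold both the C and D letters in these windows.
Snord47, in Gas5 (chr1:161038082-161038158, plus strand): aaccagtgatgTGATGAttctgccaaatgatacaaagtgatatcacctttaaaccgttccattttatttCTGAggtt
Snord50a, in Snhg5 (chr9:88521529-88521600, minus strand): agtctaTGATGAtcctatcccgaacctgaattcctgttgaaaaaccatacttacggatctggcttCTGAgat
Snord87, in Snhg6 (chr1:9942463-9942549, minus strand): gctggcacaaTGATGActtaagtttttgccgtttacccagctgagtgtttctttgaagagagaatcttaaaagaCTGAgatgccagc
Snora24, in Snhg8 (chr3:123507937-123508066, minus strand): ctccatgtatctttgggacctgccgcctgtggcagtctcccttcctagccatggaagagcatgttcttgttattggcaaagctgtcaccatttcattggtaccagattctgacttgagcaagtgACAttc
The C and D letters in these windows were held by 20.5% of 1507 annotated mouse snoRNA transcripts, and ACA in the last 8 bases by 46.8%, read on the transcript strand. The snoRNAs Snord50a and Snord50b of Snhg5 differed at 1 of 72 bases, and Snora73a and Snora73b of Snhg3 at 7 of 205.

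The annotated transcription starts were read for the pyrimidine run of a TOP start. RefSeq windows of 40 bases, 20 before the start and 20 from it, are printed for 6 of the 7 genes, with 2 starts for Gas5. Capitals mark a run of at least 5 pyrimidines that comes within 5 bases of the annotated start, read on the strand of the gene.
Gas5, upstream start (chr1:161034581-161034620, plus strand): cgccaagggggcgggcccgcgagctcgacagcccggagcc
Gas5, downstream start (chr1:161035146-161035185, plus strand): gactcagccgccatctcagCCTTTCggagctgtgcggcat
Snhg1 (chr19:8723467-8723506, plus strand): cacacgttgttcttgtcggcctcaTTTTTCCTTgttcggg
Snhg3 (chr4:132353667-132353706, minus strand): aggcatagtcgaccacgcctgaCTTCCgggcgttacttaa
Snhg5 (chr9:88522878-88522917, minus strand): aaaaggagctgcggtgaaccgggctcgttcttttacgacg
Snhg7 (chr2:26640225-26640264, minus strand): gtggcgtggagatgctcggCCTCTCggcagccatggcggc
Snhg8 (chr3:123508317-123508356, minus strand): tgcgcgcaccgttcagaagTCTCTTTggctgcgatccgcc
Such a run was present at the downstream start of Gas5 and at Snhg1, Snhg3, Snhg7 and Snhg8, and at 31.4% of all 32851 annotated starts. The letters TATAAA occurred in the 50 bases before the start on the gene's strand for Snhg5, Snhg7 and Snhg8, against 2.63% of all starts. CACGTG, the palindromic E-box bound by Myc, was in none of these members' 300-base windows and in 7.15% of all. Snhg6 is annotated on chromosome 1 from 9942025 to 9944118 (GRCm38).

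The libraries listed 10327 to 10861 genes at 1 TPM or more, and libraries of the same clone correlated across genes at 0.992 or above (Pearson). TPM keep no read total, so counting error could not be given. Peptide-activated R7-II differed widely from the other clones, and 20 S phase genes fixed as a list moved with it: 19 were lower in R7-II than R7-I, all 20 were lower than in R7-III, and 19 were higher in R7-III than in R7-I. In the same directions, 15.5%, 18.0% and 6.96% of all genes tested were called. The sorted cells carried their defining markers, with Cd3e at 267.14 to 389.47 TPM and Cd8a at 338.55 to 451.87 TPM. B cell, MHC class II and myeloid markers were highest in R7-II. Among all genes, 40.6% were called higher in R7-II than R7-I, the share to set beside the marker counts that follow. All 8 B cell markers passed as higher in R7-II than R7-I, and their summed level was 8.58 to 15.89 TPM in R7-I, 35.28 to 73.55 TPM for R7-II and 5.1 to 8.01 TPM for R7-III. All 7 MHC class II genes passed in the same comparison (summed level 32.38 to 50.32, 112.5 to 183.1 and 24.29 to 28.13 TPM), as did 6 of 9 myeloid markers tested (4.65 to 5.58, 23.59 to 83.83 and 5.42 to 6.72 TPM), of which 3 were called without R7-I replicate 1. Erythroid markers, mostly globins, summed to 45.24 to 131.4 TPM in R7-I, 2.14 to 22.11 TPM for R7-II and 14.5 to 41.92 TPM for R7-III, with 1 of 6 tested called lower in R7-II than R7-I, and 2 without R7-II replicate 3 or without R7-III replicate 3. The 4 CD4 T cell markers summed to 3.36 to 4.11, 4.03 to 5.81 and 5.62 to 8.01 TPM in the same order of clones. The 5 NK cell markers summed to 267.3 to 323, 116.9 to 142.7 and 334.8 to 346.4 TPM, and the 1 tested, Nkg7, a granule protein gene that CD8 T cells also express, was called lower in R7-II than either other clone. The 9 tested CD8 T cell genes summed to 2529 to 2583, 3461 to 3543 and 2622 to 2741 TPM, with 8 called higher in R7-II than R7-I. The part of these cells and of S phase in the results given here was not tested.

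The 7 host genes were expressed at very different levels (TPM, corrected for length). Snhg1 was the highest, at a mean of 378 TPM over the 9 libraries and rank 370 among all genes. Gas5 followed at 236 TPM, Snhg3 at 175, Snhg5 at 126, Snhg6 at 100.1, Snhg8 at 57.0 and Snhg7 at 16.7. This order held in all 9 libraries for every pair of genes except Snhg5 over Snhg6, seen in 6 of 9, and Snhg6 over Snhg8, seen in 7 of 9. In R7-I Snhg6 stood above Snhg5 in every library, whereas in R7-II and R7-III it lay near Snhg8. The spread between replicates was small, with coefficients of variation of 1.19% to 9.99% over the 7 genes and 3 clones.

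**Figure D1:**
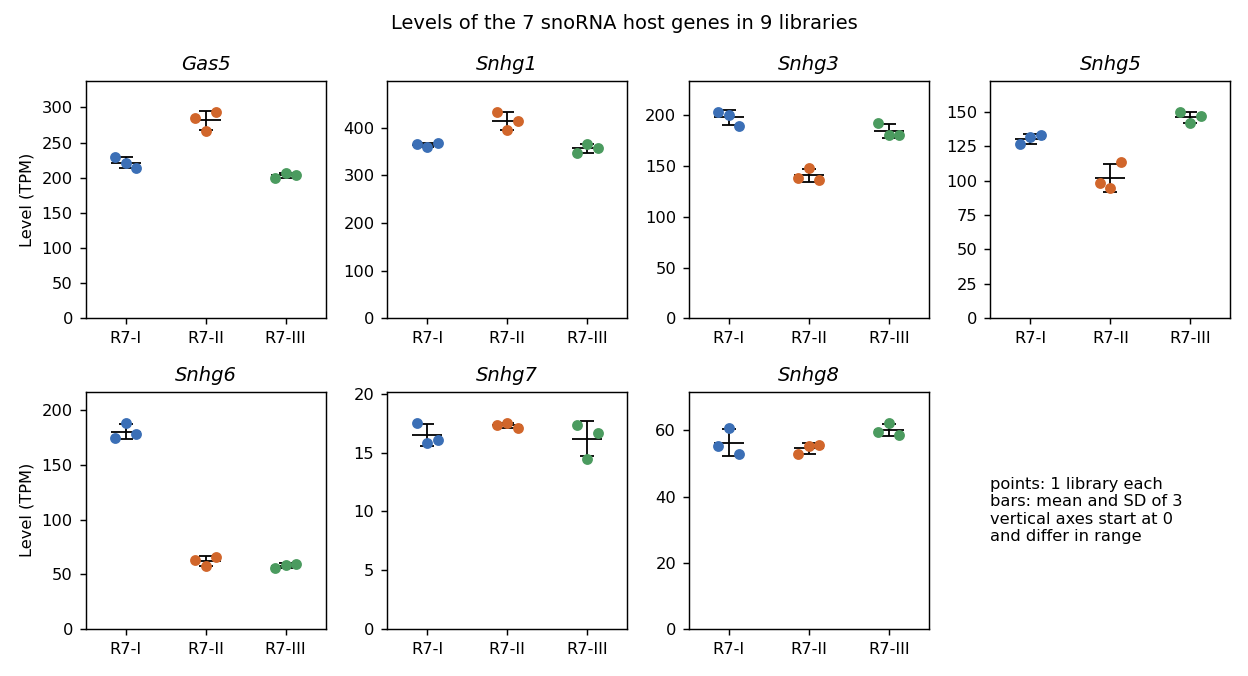
Level of each host gene in TPM (vertical axes, each starting at 0) in the 3 libraries per clone, with points for libraries and bars for the mean and SD (n = 3). Gas5 and Snhg1 are highest in R7-II, Snhg3 and Snhg5 are lowest there, and Snhg6 lies at 174.77 to 188.52 TPM in R7-I against 55.64 to 66.1 TPM in the other clones.

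Gas5 and Snhg1 were the members with their highest TPM in R7-II beyond the spread of replicates. The level of Gas5 was 229, 221.24 and 214.41 TPM in R7-I, 285.33, 267.06 and 293.47 TPM for R7-II, and 199.42, 206.48 and 203.42 TPM for R7-III. All 3 clones were separate, with R7-II above R7-I and R7-I above R7-III. Gas5 was 1.27-fold higher in R7-II than R7-I (log2 change 0.35, SE 0.0385, adjusted p = 1.98e-05) and 1.39-fold higher than in R7-III (0.47, adjusted p = 2.3e-06), both by limma over all genes tested. Between R7-III and R7-I the change was -0.12 and did not pass the threshold of 0.01 (adjusted p = 0.0465). In bulk libraries such as these, fewer cells holding a transcript and less of it per cell cannot be told apart.

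R7-II libraries also carried a general shift in TPM. The median change of all genes tested was 0.17 on the log2 scale for R7-II minus R7-I, 0.12 for R7-II minus R7-III and 0.04 for R7-III minus R7-I. Median-of-ratios scaling, which divides each library by the median ratio of its genes to their geometric mean, brought these medians to 0.0084, 0.0042 and 0.0004. On that scale Gas5 was still higher in R7-II than R7-I, by 0.17 (adjusted p = 0.00247), and than in R7-III, by 0.34 (adjusted p = 2.53e-05), while R7-III minus R7-I was -0.17 (adjusted p = 0.0109). Gas5 therefore kept its direction and its calls in either scale.

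The reads did not keep strand, and the Gas5 span on chromosome 1 (161034601 to 161038539) overlaps the annotated span of Zbtb37, so reads in shared stretches cannot be assigned to a strand. Zbtb37, a zinc finger protein gene, ran at 6.49 to 11.43 TPM and was higher in R7-II than R7-I by 0.39 (adjusted p = 0.00286), a call that median-of-ratios scaling (0.23, adjusted p = 0.0275) and quantile normalization ended. Without R7-I replicate 2, R7-II replicate 1 or R7-II replicate 3 that call was lost as well.

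Snhg1, a host of 8 snoRNA genes on chromosome 19, stood at 366.01, 359.14 and 367.12 TPM in R7-I, at 432.87, 395.61 and 413.19 TPM for R7-II and at 346.22, 365.49 and 357.74 TPM for R7-III. Every R7-II library exceeded every other library, and R7-I and R7-III overlapped. The increase in TPM was 1.14-fold over R7-I (log2 change 0.18, SE 0.0347, limma adjusted p = 7.98e-04) and 1.16-fold over R7-III (0.21, adjusted p = 2.98e-04). The difference from R7-I was close to the median shift of all genes, 0.17, while that from R7-III exceeded its shift of 0.12. Both calls were lost with median-of-ratios scaling, where the changes were 0.0078 (adjusted p = 0.816) and 0.09 (adjusted p = 0.0181).

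Snhg3 and Snhg5 went the other way and were lowest in R7-II. Snhg3, the host of the H/ACA snoRNAs Snora73a and Snora73b, was at 203.42, 200.69 and 189.92 TPM in R7-I, 138.62, 148.25 and 136.38 TPM for R7-II and 192.31, 180.9 and 180.52 TPM for R7-III. The R7-II libraries lay below all 6 others, while R7-I and R7-III overlapped. Snhg3 fell by 0.49 on the log2 scale against R7-I (ratio 0.713, SE 0.0418, limma adjusted p = 3.31e-06) and by 0.39 against R7-III (ratio 0.764, adjusted p = 1.77e-05). With median-of-ratios scaling it fell by 0.66 and 0.51.

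Snhg5, the host of Snord50a and Snord50b, was at 126.25, 131.69 and 133.47 TPM in R7-I, 98.14, 94.39 and 113.62 TPM for R7-II and 149.88, 141.73 and 146.61 TPM for R7-III. The 3 clones did not overlap, with R7-III highest and R7-II lowest, the reverse of their order for Gas5. Snhg5 fell by 0.36 against R7-I (ratio 0.782, SE 0.0595, limma adjusted p = 3.49e-04) and by 0.52 against R7-III (ratio 0.699, adjusted p = 2.66e-05). The change between R7-III and R7-I, 0.16, did not pass (adjusted p = 0.0852). Median-of-ratios scaling enlarged the falls to 0.53 and 0.64.

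Rcc1 and Snhg12, which in RefSeq lie on the same side of Snhg3 on chromosome 4, were looked at after the values of Snhg3 were seen. Rcc1, which encodes the nucleotide exchange factor of the GTPase Ran, ends 6.2 kb from Snhg3 in RefSeq, although in GENCODE its annotated span includes Snhg3. Its level was 210.77 to 214.24 TPM in R7-I, 148.46 to 150.74 TPM for R7-II and 221.58 to 225.07 TPM for R7-III. It fell in R7-II by 0.50 against R7-I (limma adjusted p = 8.57e-08) and by 0.57 against R7-III (adjusted p = 6.59e-08). The fall against R7-I was near that of Snhg3 (0.49), and the fall against R7-III was larger than that of Snhg3 (0.39). Snhg12, another snoRNA host 40.9 kb from Snhg3, was at 106.7, 118.36 and 115.02 TPM in R7-I, 133.47, 124.83 and 125.19 TPM for R7-II and 111.85, 119.74 and 118.61 TPM for R7-III. Its log2 change in R7-II against R7-I was 0.17 on the TPM scale (adjusted p = 0.00659) and -0.0022 after median-of-ratios scaling, and the TPM call was also lost without R7-I replicate 1 or 3 and without R7-II replicate 1 or 3.

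Snhg6, the host of Snord87, had the greatest difference of the 7 genes and a pattern of its own. Its level was 174.77, 188.52 and 177.8 TPM in R7-I, 62.93, 57.13 and 66.1 TPM for R7-II, and 55.64, 58.76 and 59.48 TPM for R7-III. The R7-I libraries stood far above the other 6, and R7-II and R7-III overlapped. R7-I exceeded R7-II 2.91-fold (log2 change of R7-II minus R7-I -1.53, SE 0.0537, limma adjusted p = 2.05e-08) and R7-III 3.11-fold (R7-III minus R7-I -1.62, adjusted p = 4.67e-08). Between R7-II and R7-III the change was 0.09 (adjusted p = 0.141), and -0.0298 after median-of-ratios scaling. Both calls held in all 19 alternatives that were run. The summed erythroid markers were also highest in R7-I, and their part in the Snhg6 difference was not tested.

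Genes with the pattern of Snhg6 were counted over the whole table. Of all genes tested, 40 were called lower in R7-II and in R7-III than in R7-I without being called different between R7-II and R7-III. Ranked by the smaller of their 2 changes, Snhg6 was the second (-1.53) after Hopx (-3.43), which encodes a small homeodomain protein, and before Afp (-0.98). This ranking was made after the values of Snhg6 were seen and is a description.

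No other tested gene within 500 kb of Snhg6 was called with its pattern. The window of 500 kb on either side, chosen after its values were seen, held 9 other tested genes. None of the 9 was called between R7-III and R7-I by limma, with 2 at an unadjusted p under 0.05, where the smallest adjusted p was 0.0122 and the changes ran from -0.21 to 0.54. In R7-II against R7-I, 6 were called, 4 higher and 2 lower, and in R7-II against R7-III 6 were called, 5 higher and 1 lower. Of all genes tested, 40.6% were called higher and 15.5% lower in R7-II than R7-I (56.1% together). The shares were 35.6% and 18.0% in R7-II against R7-III (53.6% together), and 8.41% were called between R7-III and R7-I. Mcmdc2, a gene with an MCM domain that acts in meiosis, overlaps the Snhg6 span and ran at 4.19 to 5.82 TPM in R7-I, 6.96 to 9.49 TPM for R7-II and 4.29 to 4.98 TPM for R7-III. Its change in R7-II against R7-I was 0.66 (adjusted p = 8.54e-04), opposite to that of Snhg6, and the call was lost with quantile normalization.

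**Figure D2:**
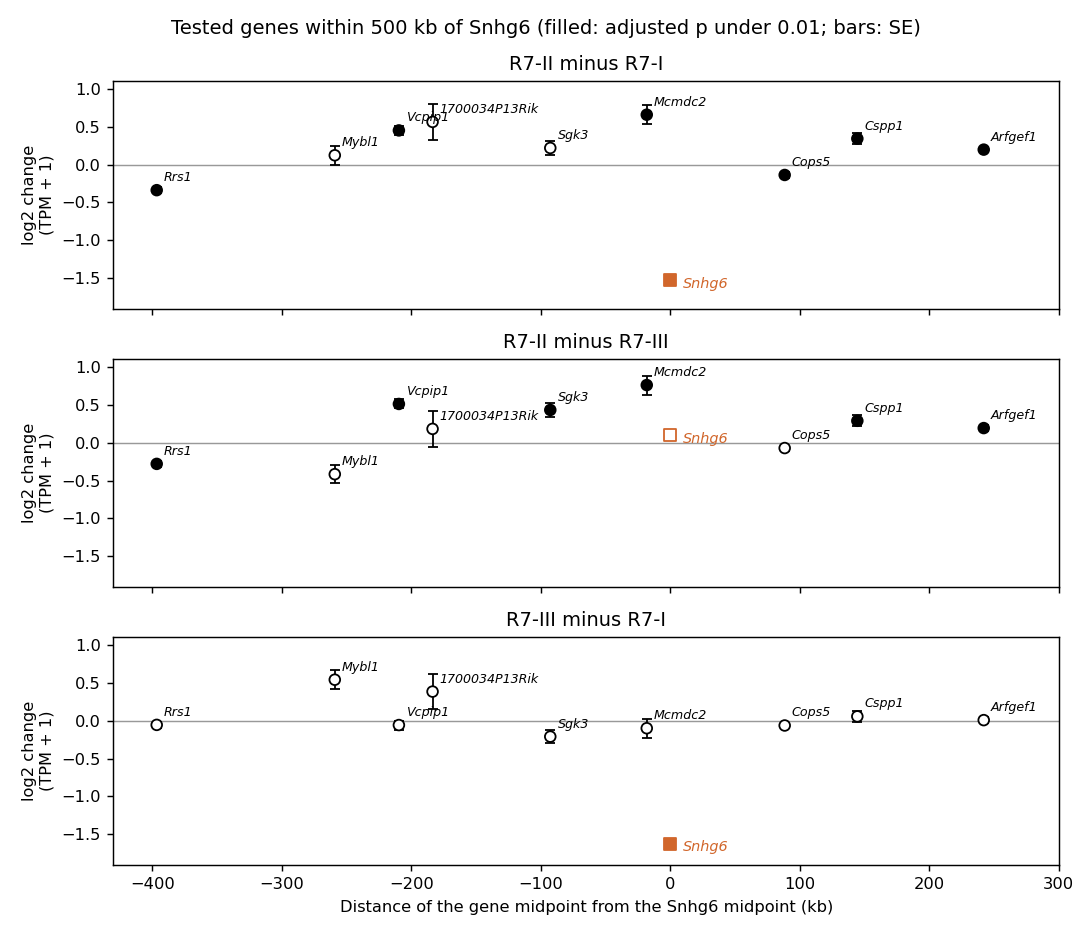
Log2 change of TPM + 1 (vertical axis, bars are SE) of Snhg6 (square) and the 9 other tested genes within 500 kb (circles), by the distance of the gene midpoint in kb, for the 3 comparisons; filled symbols have an adjusted p under 0.01. Snhg6 lies at -1.53 in R7-II minus R7-I and at -1.62 in R7-III minus R7-I, below all of its neighbours.

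In Snhg7 and Snhg8 no change passed on the TPM scale. Snhg7, the host of the H/ACA snoRNAs Snora43 and Snora17, was at 17.55, 15.83 and 16.1 TPM in R7-I, 17.32, 17.53 and 17.11 TPM for R7-II and 17.32, 14.5 and 16.7 TPM for R7-III. The clones overlapped in every pair, and the changes were 0.07 for R7-II minus R7-I (limma adjusted p = 0.4), 0.10 for R7-II minus R7-III (adjusted p = 0.236) and -0.03 for R7-III minus R7-I (adjusted p = 0.822), with a SE of 0.0692. After median-of-ratios scaling the changes of R7-II turned to -0.10 and -0.02, again without a call.

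Snhg8, the host of Snora24, was at 55.13, 60.71 and 52.87 TPM in R7-I, 52.74, 55.4 and 55.57 TPM for R7-II and 59.4, 62.33 and 58.75 TPM for R7-III. R7-II overlapped with R7-I and lay below R7-III. On the TPM scale the changes of R7-II were -0.04 against R7-I (SE 0.0516, limma adjusted p = 0.5) and -0.14 against R7-III (adjusted p = 0.0349). With median-of-ratios scaling both passed, at -0.21 (adjusted p = 0.00851) and -0.26 (adjusted p = 0.00273), so the call for Snhg8 rested on the scaling.

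In R7-II against R7-I, 5 of the 7 host genes were called, where 56.1% of all genes tested were called. The 2 higher members, Gas5 and Snhg1, compare with 40.6% of all genes called higher, and the 3 lower, Snhg3, Snhg5 and Snhg6, with 15.5% called lower. In R7-II against R7-III, 4 of 7 were called against 53.6% of all genes, with 2 higher (35.6% of all genes) and 2 lower (18.0%). In R7-III against R7-I, Snhg6 was the only member called, and it was lower, against 8.41% of all genes called and 1.45% called lower. In either direction together, the members' counts were near the share of all genes in the comparisons of R7-II. Their median change was -0.04, 0.09 and -0.03 in the 3 comparisons, beside 0.17, 0.12 and 0.04 for all genes.

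With median-of-ratios scaling the members' calls became 1 higher and 4 lower in R7-II against R7-I (26.0% and 28.5% of all genes, 54.5% in either direction) and 1 higher and 3 lower against R7-III (25.6% and 27.8%, 53.4% in either direction). Gas5 was then the only member higher in R7-II. In R7-III against R7-I the call stayed at Snhg6 alone, with 8.39% of all genes called, 4.95% higher and 3.44% lower. An exact permutation test was also run for each member, two-sided, as 28 tests in all, and its p-values are given unadjusted. Setting R7-II against the rest was chosen with earlier results of these data known, so those values are a description. For R7-II against the other 6 libraries the test gave exact p = 0.0238, the smallest this design allows, for Gas5, Snhg1, Snhg3 and Snhg5. It gave exact p = 0.429 for Snhg6, 0.214 for Snhg7 and 0.19 for Snhg8. Between pairs of clones, 3 against 3, the smallest exact p is 0.1, which no threshold used here could pass.

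**Figure D3:**
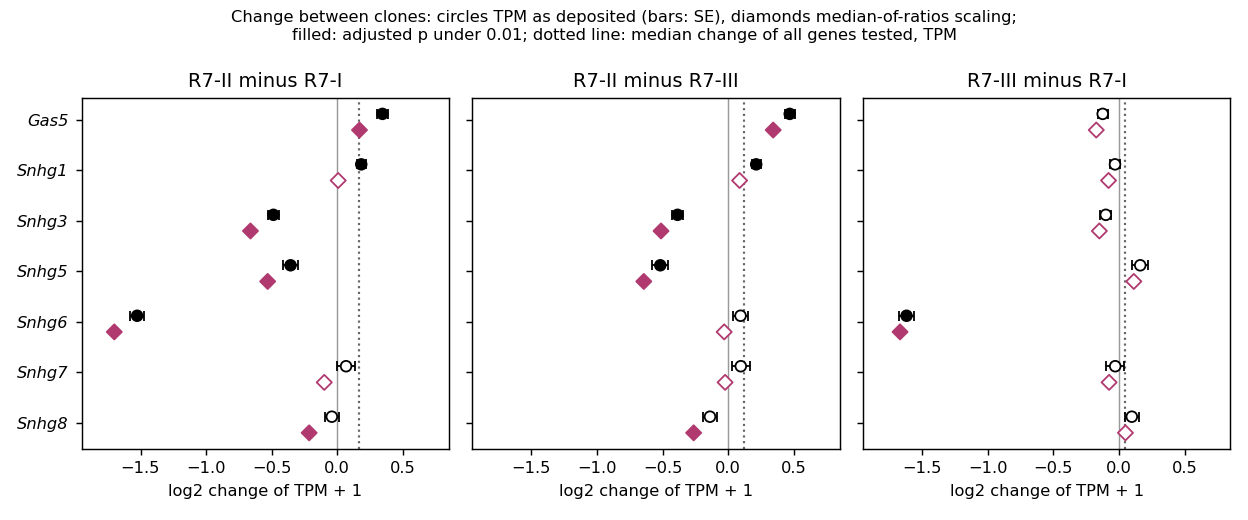
Log2 change of TPM + 1 (horizontal axis) of the 7 genes in 3 comparisons, as circles with SE bars for TPM and diamonds for median-of-ratios scaling; filled symbols have an adjusted p under 0.01 and the dotted line is the median change of all genes. Gas5 keeps a filled symbol above 0 in either scale for both comparisons of R7-II, whereas Snhg1 does so only for TPM.

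The summed level of the 7 genes (mean ± SD over 3 libraries) was 1167 ± 13.7 TPM for R7-I, then 1073 ± 32.7 TPM for R7-II and finally 1025 ± 5.13 TPM for R7-III. The libraries of the 3 clones did not overlap in this sum, and the exact test could not go below 0.1. With median-of-ratios scaling the order of R7-II and R7-III turned, at 998.9 and 1042. The make-up of the sum differed more. Gas5 made up 19.0% of it in R7-I, 26.3% in R7-II and 19.8% in R7-III, and Snhg1 made up 31.2%, 38.6% and 34.8%. Snhg6 made up 15.5%, 5.78% and 5.66%.

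**Figure D4:**
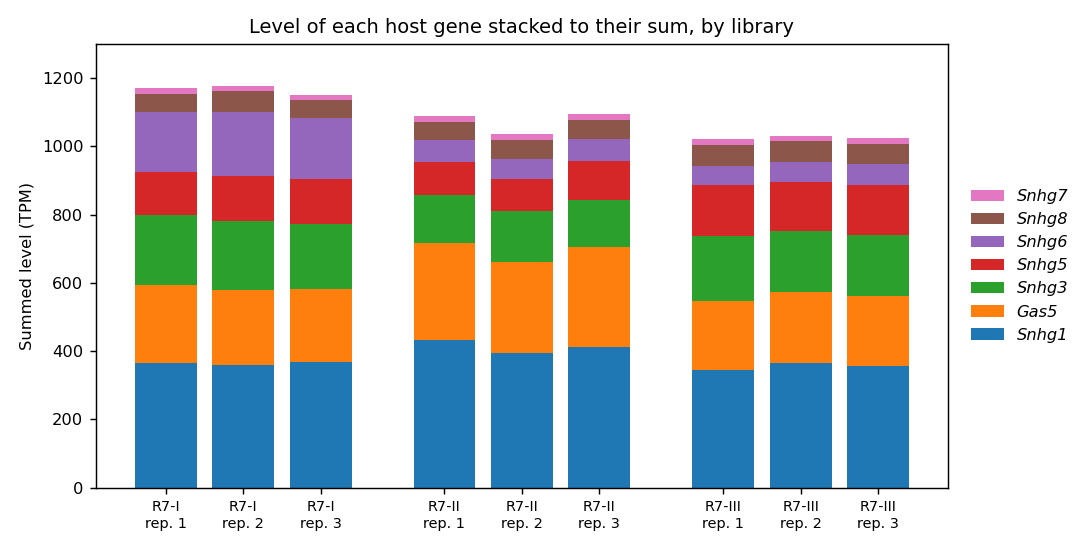
Summed level in TPM (vertical axis from 0) of the 7 host genes in each of the 9 libraries, stacked by gene. The sum lies between 1020.19 and 1177.82 TPM, with a wider Snhg6 band in the 3 libraries of R7-I and wider Gas5 and Snhg1 bands in those of R7-II.

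Other non-coding snoRNA hosts were compared as a list of 14, of which 13 were in the table and 11 were tested. Snhg15, Snhg16, Snhg17, Snhg20, Zfas1 and Epb41l4aos stand in it under older names and were matched through RefSeq synonyms. In R7-II against R7-I, 4 were higher, 2 lower and 5 not called, with a median change of 0.11 beside 0.17 for all genes. Median-of-ratios scaling left 1 higher and made 3 lower, with a median of -0.04. Among all genes, 40.6% were called higher and 15.5% lower in TPM, and 26.0% and 28.5% with median-of-ratios scaling. Without R7-I replicate 3 or without R7-II replicate 1, 3 hosts were called in place of 6. In R7-II against R7-III, 4 were higher and 1 lower (2 and 1 with median-of-ratios scaling). The shares of all genes were 35.6% and 18.0% there (25.6% and 27.8% with that scaling), and 8.41% were called between R7-III and R7-I. In R7-III against R7-I none of the 11 was called by limma in TPM, with 3 at an unadjusted p under 0.05, and 1 was lower with median-of-ratios scaling.

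Zfas1, the host of box C/D snoRNAs antisense to the Znfx1 promoter, was the most abundant host of this list. It was at 262.54, 246.12 and 278.39 TPM in R7-I, 348.97, 337.11 and 325.25 TPM for R7-II and 276.32, 277.37 and 286.65 TPM for R7-III. R7-II stood above both other clones, by 0.36 over R7-I (SE 0.0436, limma adjusted p = 3.51e-05) and 0.27 over R7-III (adjusted p = 3.25e-04). With median-of-ratios scaling the change over R7-I was 0.19 (adjusted p = 0.00232) and that over R7-III 0.14 (adjusted p = 0.0117), which no longer passed.

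Snhg20 and Snhg17 were also higher in R7-II. Snhg20 was at 41.2 to 47.99 TPM in R7-I, 51.69 to 64.29 TPM for R7-II and 37.34 to 42.22 TPM for R7-III, a change of 0.35 over R7-I (adjusted p = 0.00328) and 0.54 over R7-III (adjusted p = 1.84e-04). Snhg17 was at 30.61 to 33.44, 37.01 to 44.2 and 30.45 to 33.5 TPM, a change of 0.31 (adjusted p = 0.00165) and 0.34 (adjusted p = 0.00104). Median-of-ratios scaling ended the calls of both genes against R7-I (0.18 and 0.14) and kept those against R7-III (0.42 and 0.22). Quantile normalization ended the calls against R7-I too, and that of Snhg17 against R7-III. Leaving out R7-I replicate 3, R7-II replicate 1 or R7-II replicate 3 also ended the call of Snhg20 against R7-I.

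Epb41l4aos and Dancr were lower in R7-II than R7-I. Epb41l4aos was at 64.89 to 70.96 TPM in R7-I, 53.33 to 61.3 TPM for R7-II and 66.34 to 70.54 TPM for R7-III, with changes of -0.26 (limma adjusted p = 0.00161) and -0.25 (adjusted p = 0.00236). Its call against R7-III was lost without R7-III replicate 2. Dancr was at 23.93 to 25.68 TPM in R7-I, 19.37 to 23.44 TPM for R7-II and 21.41 to 22.64 TPM for R7-III. Its change of -0.24 against R7-I (adjusted p = 0.0085) lay close to the threshold and was lost without any of the 3 R7-I libraries, the 3 R7-III libraries, or R7-II replicate 1 or 2, and that of -0.07 against R7-III did not pass.

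In TPM the remaining hosts differed little between R7-II and R7-I. Snhg15 was at 155.81 to 172.08 TPM in R7-I, 162.37 to 166.5 TPM for R7-II and 143.91 to 144.25 TPM for R7-III. It was higher in R7-II than R7-III (0.19, limma adjusted p = 9.08e-04), a call that median-of-ratios scaling ended (0.07, adjusted p = 0.135). With that scaling Snhg15 was called lower than in R7-I both in R7-II (-0.1492, adjusted p = 0.00523) and in R7-III (-0.2165, adjusted p = 0.00396). Snhg4 (46.42 to 58.84 TPM over the 9 libraries) and Snhg16 (49.87 to 60.3 TPM) changed by 0.13 and 0.11 against R7-I without a call. Snhg10 was at 1.56 to 2.88 TPM and Snhg9 was listed at 0 in 2 libraries of R7-III and at up to 1.44 TPM elsewhere, so both were near the lower limit of the table.

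**Figure D5:**
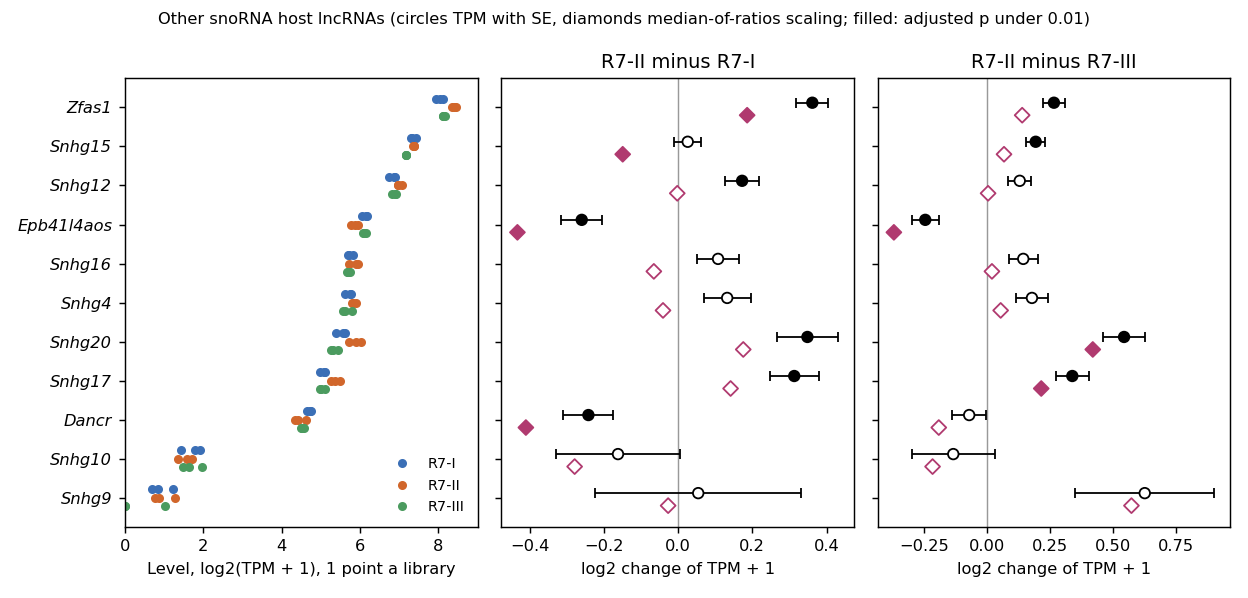
Left, level of the 11 other tested snoRNA host RNAs as log2(TPM + 1), with 1 point a library; middle and right, log2 change of R7-II against R7-I and R7-III, as circles with SE bars for TPM and diamonds for median-of-ratios scaling, filled where the adjusted p was under 0.01. Zfas1 is the most abundant and is called higher in R7-II in TPM, while Epb41l4aos lies below 0 in both comparisons.

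The snoRNAs themselves were hardly visible in these poly(A) libraries. Of 110 rows named as snoRNA genes, 72 were listed at 0 in every library and 37 were tested. Snord87 of Snhg6, Snord47 of Gas5 and Snora24 of Snhg8 were all listed at 0 in the 9 libraries. Snord47 (77 bases) and Snord87 (87 bases) are shorter than the reads the paper describes. A full read cannot lie inside them, so their 0 does not measure their level. Snord22, inside Snhg1, was listed at 48.32 to 86.41 TPM. Snora43, inside Snhg7, was at 7.56, 15.62 and 8.62 TPM in R7-I, 4.39, 4.49 and 5.09 TPM for R7-II and 11.47, 9.05 and 8.45 TPM for R7-III. It was lower in R7-II by -0.98 against R7-I (limma adjusted p = 0.00178) and -0.91 against R7-III (adjusted p = 0.00293), with every R7-II library below the other 6, while its host did not change by a called amount. The call against R7-III was lost without R7-II replicate 1 or R7-III replicate 1. Snora17, also inside Snhg7, did not share this fall and averaged 4.65 TPM in R7-I, 6.46 TPM for R7-II and 5.9 TPM for R7-III. Its changes in R7-II were 0.45 against R7-I (limma adjusted p = 0.168) and 0.11 against R7-III (adjusted p = 0.753). A snoRNA lies inside its host's unspliced RNA, so these rows cannot separate the mature snoRNA from reads of the host's introns.

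Protein-coding snoRNA hosts, a list of 41 genes mostly of the translation machinery, leaned lower in R7-II. In TPM, 4 were higher and 15 lower than in R7-I, with a median change of -0.06, and 5 were higher and 13 lower than in R7-III, with a median of -0.01. Among all genes, 40.6% were called higher and 15.5% lower than in R7-I, and 35.6% and 18.0% than in R7-III. With median-of-ratios scaling none was higher and 36 were lower than in R7-I, and none was higher and 21 were lower than in R7-III. The shares of all genes were then 26.0% and 28.5% against R7-I and 25.6% and 27.8% against R7-III. Hspa8, a constitutive Hsp70 chaperone, was at 6525.42 to 6822.2 TPM in R7-I and 4643.09 to 4954.79 TPM for R7-II, a fall of 0.49 (adjusted p = 2.18e-07). Ncl, which encodes nucleolin, fell by 0.35 (adjusted p = 1.12e-06). Among 82 tested ribosomal protein genes, 5 were higher and 16 lower in R7-II than R7-I in TPM, and 1 was higher and 65 were lower with median-of-ratios scaling. Without R7-I replicate 1, 11 of these 82 were called in place of 21.

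The proteins that pack snoRNAs were mostly lower in R7-II. All 4 box C/D core genes were called lower than in R7-I and 3 of 4 lower than in R7-III. Among all genes, 15.5% were called lower and 40.6% higher than in R7-I, and 18.0% lower than in R7-III. Snu13, the protein that first binds the C/D motif, was at 559.61 to 565.28 TPM in R7-I, 388.78 to 410.22 TPM for R7-II and 533.38 to 574.44 TPM for R7-III (change -0.50 against R7-I, limma adjusted p = 4.25e-07). Fbl, the methyltransferase fibrillarin, and Nop56 fell by 0.17 and 0.18 against R7-I. Quantile normalization left 2 of the 4 calls against R7-I. Of the 4 H/ACA core genes, Nhp2 fell by 0.44 and Dkc1, the pseudouridine synthase, by 0.16, whereas Nop10 was higher by 0.22, a call lost with median-of-ratios scaling (0.04, adjusted p = 0.431). Of 10 snoRNP assembly factors, 7 were lower and none higher in R7-II than R7-I, and 6 were lower than in R7-III. Naf1, an H/ACA assembly factor, changed most against R7-I, from 58.66 to 65.32 TPM in R7-I to 44.02 to 46.51 TPM for R7-II (-0.46, adjusted p = 2.3e-05). With median-of-ratios scaling 4, 3 and 8 genes of these lists were lower than in R7-I and none was higher. Among all genes, 28.5% were then lower and 26.0% higher.

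Other TOP messages were compared as a list of 16, mostly translation genes. In R7-II against R7-I, 4 were higher and 3 lower, with a median of 0.0063, and 1 was higher and 11 lower with median-of-ratios scaling (median -0.17). Among all genes, 40.6% were called higher and 15.5% lower in TPM, and 26.0% and 28.5% with median-of-ratios scaling. Vim, which encodes the intermediate filament protein vimentin, was at 15.88, 14.61 and 13.66 TPM in R7-I, 27.76, 38.97 and 36.82 TPM for R7-II and 21.34, 24.0 and 21.54 TPM for R7-III, a change of 1.16 over R7-I (adjusted p = 6.39e-06). Npm1, the nucleolar chaperone nucleophosmin, fell from 6395.53 to 6432.06 TPM in R7-I to 4956.18 to 5053.97 TPM for R7-II (-0.36, adjusted p = 2.07e-07). Tpt1 was higher by 0.21 (adjusted p = 3.42e-05), which scaling reduced to 0.03 (adjusted p = 0.466). Among 10 genes that control TOP messages, 4 were higher and 3 lower, and 1 was higher and 3 lower with median-of-ratios scaling. Larp1, which binds the TOP start, fell by 0.45 (adjusted p = 1.95e-07), and Tsc1, an inhibitor of the mTOR pathway, was higher by 0.60 (adjusted p = 2.07e-05).

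Nonsense-mediated decay removes Gas5 and similar host RNAs. Of 15 decay factors tested, 6 were higher and 4 lower in R7-II than R7-I and 5 were higher and 1 lower than in R7-III, and none was called between R7-III and R7-I by limma in TPM, with 5 at an unadjusted p under 0.05. Among all genes, 40.6% were called higher and 15.5% lower in R7-II than R7-I, and 35.6% and 18.0% in R7-II than R7-III. Between R7-III and R7-I 8.41% of all genes were called. With median-of-ratios scaling the counts were 4 and 4 in each comparison of R7-II and 1 lower in R7-III. The shares of all genes were then 26.0% and 28.5% against R7-I and 25.6% and 27.8% against R7-III. Smg6, the endonuclease of the pathway, was at 20.44 to 22.1 TPM in R7-I and 29.04 to 32.99 TPM for R7-II (0.50, limma adjusted p = 2.46e-05). Magohb, an exon junction protein, was at 75.05 to 79.84 TPM in R7-I and 52.52 to 57.15 TPM for R7-II (-0.46, adjusted p = 1.46e-05).

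The glucocorticoid receptor with its targets, and genes of p53 and growth arrest, were compared because Gas5 is best known in these settings. Of 8 genes in the receptor list, 6 were higher in R7-II than in each of the other clones and none was lower, with medians of 0.59 and 0.57, where 40.6% and 35.6% of all genes were called higher. Tsc22d3, a glucocorticoid-induced leucine zipper gene that other signals also control, was at 15.14, 13.39 and 14.92 TPM in R7-I, 82.18, 50.81 and 65.41 TPM for R7-II and 9.74, 12.66 and 10.97 TPM for R7-III (2.09 against R7-I, adjusted p = 8.19e-07). With median-of-ratios scaling 5 were higher than in R7-I, and 6 were higher and 1 lower than in R7-III. The shares of all genes were then 26.0% higher than in R7-I, and 25.6% higher and 27.8% lower than in R7-III. Of 8 tested p53 and growth arrest genes, 6 were higher than in R7-I and none was lower, and 6 were higher and 1, Gas2, was lower than in R7-III. Cdkn1a, the cyclin-dependent kinase inhibitor p21, was at 53.98, 56.33 and 78.57 TPM in R7-I and 143.79, 136.38 and 105.29 TPM for R7-II (1.03, adjusted p = 7.69e-05). Btg2, an antiproliferative gene, was higher by 1.12 (adjusted p = 1.36e-07) and Trp53 by 0.33 (adjusted p = 4.04e-05). The summed B cell, MHC class II and myeloid markers given above were also highest in R7-II and its S phase genes lowest, and their part in these differences was not tested.

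The genes whose levels were most like that of Gas5 were found by Pearson correlation of log2(TPM + 1) over the 9 libraries, among 7619 genes with a mean of at least 10 TPM. They were Atp5sl (0.993), Gtf2a1 (0.991), Sla (0.991), Sec24a (0.990) and Cd9 (0.989), and the most opposite was Orc6 (-0.992). Atp5sl averaged 23.2 TPM in R7-I, 36.0 TPM for R7-II and 21.1 TPM for R7-III. Orc6, a subunit of the origin recognition complex, averaged 53.9, 35.4 and 65.8 TPM. The 9 points share only 3 clones, so these values describe the order R7-II, R7-I, R7-III or its reverse.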

How the data were processed

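Polyadenylated RNA of 9 libraries, 3 biological replicates of each of 3 clones, had been sequenced as single-end reads with no strand kept. The authors computed TPM per gene with RSEM 1.2.11, used for alignment and counting, on RefSeq genes of mm10 and deposited them with 2 decimals. The submitters' processing notes also name DESeq2 1.8.1. TPM keep no read total, so no counting interval could be given, and replicate spread is the measure of error.

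Genes with a maximum above 1 TPM (11330 of 24060) were tested with limma 3.58.1 (R 4.3.3) on log2(TPM + 1), with a mean-variance trend, all 9 libraries in the fit, and Benjamini-Hochberg adjustment over all genes. Calls had an adjusted p under 0.01. Fold changes on that scale understate the change of low genes. The fit was tested on simulated data in which a small set of genes changed, in R7-II only, without a general shift. That setting is simpler than these data, so it does not show how the fit behaves where most genes are called. Exact permutation tests were two-sided (Python 3.11.15, scipy 1.17.1). The p-values measure only the spread between these libraries.

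The members and lists were chosen with earlier results of these data known. Named genes were the 7 members, every measured non-coding host of the list, from each other list the 3 of highest mean TPM and the 2 of largest change between R7-II and R7-I, genes overlapping a member, and the 5 most alike and 1 most opposite to Gas5. Those that bear least on the hosts (housekeeping, ribosomal protein and marker genes) are covered by their lists' counts, and some genes the rule names are not reported here. Cd3e and Cd8a are outside this rule, as defining markers, and Rcc1, Snora43, Snora17, Gas2, the Snhg6 window, Hopx and Afp were named after their values were seen. Sequences came from RefSeq (GRCm38.p6), where 6 of 7 members had an entry, and from GENCODE for GRCm38. Alternatives were other pseudocounts, filters, scalings and thresholds, a fit of only the clones compared, a replicate block, and each library left out.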

Additional observations from a re-analysis of the deposited data

How the results depend on the processing

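Each result was recomputed under 19 alternatives. Of 399 recomputed changes of the 7 members, 383 kept their direction and their side of the threshold, 2 lost their call (Snhg1 in both comparisons of R7-II, with median-of-ratios scaling), 5 gained a call and 9 changed sign without a call in the original fit. Those gained were Snhg8 in R7-II against R7-I and against R7-III with median-of-ratios scaling, Snhg8 against R7-III also with quantile normalization and at an adjusted p of 0.05, and Gas5 in R7-III against R7-I at 0.05. With median-of-ratios scaling and with quantile normalization the change of R7-II against R7-I became -0.0984 and -0.1888 for Snhg7, -0.0406 and -0.0164 for Snhg4, and -0.0653 and -0.0324 for Snhg16. With the former alone it became -0.0022 for Snhg12 and -0.1492 for Snhg15, the latter a call (limma adjusted p = 0.00523). Against R7-III it became -0.0298 and -0.0023 for Snhg6 and -0.0227 and -0.0866 for Snhg7. Leaving out each library, the change ranged from -0.0832 to 0.0148 for Snhg8 and from -0.0015 to 0.0697 for Snhg15 in R7-II against R7-I, both changing sign without R7-I replicate 2, and from -0.0775 to 0.0431 for Snhg7 in R7-III against R7-I, changing sign without R7-I replicate 1 (0.0140) or R7-III replicate 2. The causes of these moves were not tested.

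In R7-III against R7-I, 2 members and 2142 genes were called at an adjusted p of 0.05, against 1 and 953, and 436 to 1120 genes were called with a library left out (436 and 577 without R7-I replicate 1 or 2, 496, 497 and 530 without R7-III replicate 1, 2 or 3). The summed level of the members with median-of-ratios scaling was 1228 in R7-I, 998.9 in R7-II and 1042 in R7-III, which placed R7-II below R7-III. The number of members at the smallest exact p for R7-II against the rest was 4, and 0 to 4 with a library left out. It was 0 without any R7-II replicate, where 2 against 6 libraries allow no p below 0.0714. Replicate numbers did not pair the libraries, since the deviations of same-numbered libraries correlated at -0.045 to 0.089. With a replicate block 5, 4 and 1 members and 6015, 5786 and 733 genes were called in the 3 comparisons, against 5, 4 and 1 members and 6358, 6077 and 953 genes without it. TPM hold no depth, so the lowest rows (Snhg9, Snhg10 and the snoRNAs) have an unknown counting error.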
